A study of Oryza sativa with 17 samples.

Results

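Germinating seed of the weedy rice accession WR04-6 was compared between 14 and 12 days after imbibition (DAI), with both groups held at 10 °C. Weedy rice grows as a weed in rice fields. The study set WR04-6 against the cultivated rice QSZ to look for genes that act in low-temperature germination. The genes considered were those with at least 0.1 FPKM (fragments per kilobase of transcript, scaled to library size) in 2 or more of the 6 libraries, which held for 21121 of the 23223 genes in the table. The groups were WR04-6 14 DAI and WR04-6 12 DAI, with 3 libraries each from separate biological samples, and 3 libraries of WR04-6 at 10 DAI shared the estimate of the spread. QSZ at 14 and 12 DAI, also at 10 °C and with 3 libraries each, entered where the accessions were compared. All seed had been kept warm before imbibition to break dormancy, and the weedy group is 1 accession. The labelled tissue is seed, so fewer cells of a type and less RNA per cell cannot be told apart.

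A seed that takes up water starts metabolism on its stored RNA, protein, starch and oil, and the embryo then grows out. Gibberellin promotes this step and abscisic acid (ABA) holds it back. In cereals, gibberellin made by the embryo switches on alpha-amylase in the aleurone and scutellum, which frees sugar from the starchy endosperm. Cold acts on the same tissue through calcium signals, mitogen-activated protein (MAP) kinases and the DREB1 transcription factors, which bind the promoters of cold-response genes.

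The 9 WR04-6 libraries held 51209499 to 72494532 estimated counts, and the 14 DAI libraries were the 3 smallest of them. On principal component 1 of log2(FPKM + 0.1), which took 26.0% of the variance, the 3 libraries of 14 DAI lay between 29.4 and 50.4 and the other 6 between -37.0 and -9.65. Replicate 1 of 14 DAI stood apart from replicates 2 and 3 on component 2 (-47.3, against 18.5 and 12.2). Correlation across genes ranged 0.961 to 0.979 within 14 DAI, 0.980 to 0.982 within 12 DAI, and 0.954 to 0.969 between the time points. Each marker list of the seed was detected. Genes annotated with nutrient reservoir activity, the term for seed storage proteins, numbered 29. Summed over them, FPKM ranged 3230 to 7154 at 14 DAI, against 5664 to 7538 at 12 DAI. For 8 genes with alpha-amylase activity the sums were 429 to 937 at 14 DAI, against 324 to 571 at 12 DAI. The 16 oil-body genes summed to 841 to 1198 at 14 DAI, below the 1306 to 1525 at 12 DAI. The 29 nucleosome genes, a marker of dividing cells, summed to 924 to 1004 at 14 DAI, below 1062 to 1303 at 12 DAI. For 75 DNA replication genes the sums were 1101 to 1158 at 14 DAI, against 1154 to 1204 at 12 DAI. For 15 light-harvesting antenna genes they were 66.2 to 145 at 14 DAI, against 102 to 209 at 12 DAI. Among these lists, 1 nucleosome gene was listed at 0 in at least 1 of the 6 libraries and no other marker was. The part of these sums in the results below was not tested.

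In total, 201 genes were higher at 14 DAI (0.952% of the genes tested) and 29 were lower (0.137%), at a Benjamini-Hochberg (BH) adjusted p below 0.05 and a log2 fold change of at least 1 in edgeR's quasi-likelihood test. The increases were also the larger changes, with a median log2 fold change of 1.92 among the higher genes and -1.35 among the lower ones. Of the higher genes, 96 changed by 2 or more on the log2 scale and 39 by 3 or more, while 3 of the lower genes changed by 2 or more. All 230 genes had FPKM ranges that did not overlap between the time points. Over all genes tested, 13.4% had all 14 DAI libraries above all 12 DAI libraries and 13.2% had them below. The median log2 fold change of all genes was -0.02. At any fold, 391 genes passed the BH threshold (1.85%), of which 294 were positive and 97 negative.

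**Figure D1:**
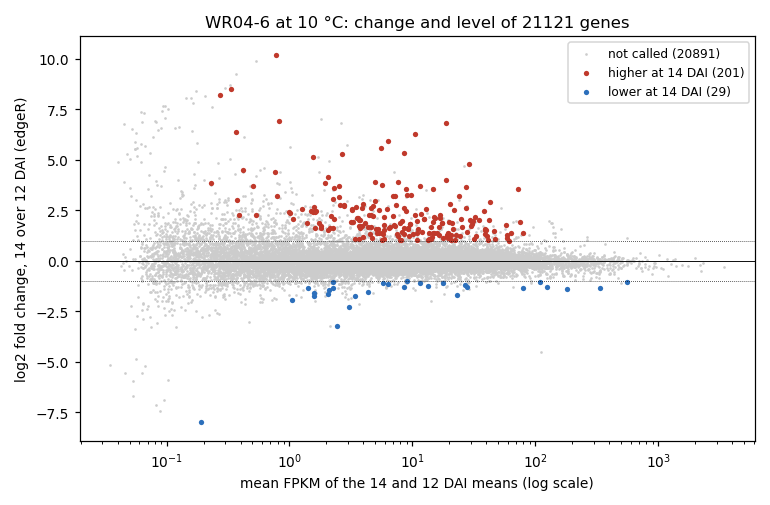
Log2 fold change (14 over 12 DAI) of each of the 21121 genes against its mean FPKM at both times, on a log axis. Red points are the 201 genes higher at 14 DAI, blue points the 29 lower ones and grey points those not called, and dotted lines mark a log2 fold change of 1 and -1.

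The 201 higher genes together took 0.964%, 0.881% and 0.779% of all FPKM in the 14 DAI libraries, against 0.255%, 0.244% and 0.242% in the 12 DAI libraries. The 29 lower genes took 0.200%, 0.195% and 0.192% at 14 DAI, against 0.455%, 0.393% and 0.478% at 12 DAI. These sums describe the genes chosen and were not tested. Both counts depended on single libraries. Without replicate 1, 2 or 3 of 12 DAI, 7, 19 and 16 genes were called higher and 0, 0 and 1 lower. Without replicate 2 or 3 of 14 DAI, 78 and 126 were called higher and 5 and 6 lower. Leaving out replicate 1 of 14 DAI gave 264 higher and 55 lower, and leaving out replicate 3 of 10 DAI gave 276 higher and 48 lower.

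Of the 230 genes, 7 kept their call whichever of the 9 libraries was left out, and all 7 were higher at 14 DAI. They were singled out after the values had been seen. LOC_Os01g60020 (chr1:34692830-34694391, minus strand), which encodes NAC68 of the plant NAC transcription factors, had 16.8, 14.7 and 14.1 FPKM at 14 DAI, against 3.39, 2.18 and 2.54 FPKM at 12 DAI. Its log2 fold change was 2.49 ± 0.19 (SE, BH-adjusted p = 0.0025 in edgeR). The 14 DAI libraries were close to each other and several times above every 12 DAI library. LOC_Os01g65410 encodes a serine hydroxymethyltransferase, an enzyme of one-carbon metabolism, and had 50.9, 43.1 and 47.9 FPKM at 14 DAI, against 13.5, 11.9 and 14.6 FPKM at 12 DAI. LOC_Os01g42380, a G-family ABC transporter that moves molecules across membranes, had 53.1, 44.3 and 41.6 FPKM at 14 DAI, against 14.7, 15.4 and 11.2 FPKM at 12 DAI. In both genes the lowest 14 DAI library was well clear of the highest 12 DAI library. LOC_Os04g59140, which the table describes by a locus name only, had 28.4, 25.7 and 21.0 FPKM at 14 DAI, against 5.34, 5.84 and 6.10 FPKM at 12 DAI. The other 3 encode a cysteine-rich receptor-like kinase (LOC_Os01g36790, log2 fold change 1.37), an AAA-ATPase (LOC_Os03g58790, 1.26) and a leucine-rich repeat extensin-like cell-wall protein (LOC_Os05g08770, 1.54). The BH-adjusted p in edgeR was 0.0025 for each of the 7.

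Among well-expressed genes (a mean of at least 10 FPKM at either time), the largest increase was that of LOC_Os04g12970 (chr4:7156820-7159820, minus strand). It encodes a UDP-glycosyltransferase of the 79 family, enzymes that attach sugars to small molecules. It had 55.9, 21.6 and 33.5 FPKM at 14 DAI, against 0.283, 0.175 and 0.506 FPKM at 12 DAI, a log2 fold change of 6.81 ± 1.34 (SE, BH-adjusted p = 0.039 in edgeR). The gene was close to silent in every 12 DAI library. At 10 DAI, 1 library was above the rest (mean 5.83 ± 8.73 FPKM, SD, n = 3). The call held in 4 of the 9 fits with 1 library left out. LOC_Os10g28240 (chr10:14681994-14685370, minus strand) encodes a plasma-membrane calcium-transporting ATPase, which pumps calcium out of the cytosol. It had 14.7, 12.0 and 5.77 FPKM at 14 DAI, against 0.270, 0.197 and 0.198 FPKM at 12 DAI, and its log2 fold change was 5.59 ± 0.62 (SE, BH-adjusted p = 0.0076 in edgeR). LOC_Os01g17330, annotated as the translation initiation factor eIF6-2, had 17.9, 9.08 and 10.5 FPKM at 14 DAI, against 0.252, 0.103 and 0.229 FPKM at 12 DAI. LOC_Os03g42130, a probable 2-oxoglutarate-dependent dioxygenase, had 12.0, 26.2 and 12.1 FPKM at 14 DAI, against 0.168, 0.262 and 0.777 FPKM at 12 DAI. In these genes every 14 DAI library was far above every 12 DAI library. LOC_Os05g10620, a NAC domain gene, reached 27.3, 18.3 and 19.2 FPKM at 14 DAI, against 2.19, 1.34 and 1.40 FPKM at 12 DAI. Of the 12 largest increases the other 7 had no informative description (LOC_Os04g53606, LOC_Os01g32670, LOC_Os11g10470, LOC_Os01g58140, LOC_Os05g43040, LOC_Os01g28790 and LOC_Os09g31031), with log2 fold changes of 3.57 to 6.28. The most abundant was LOC_Os09g31031, with 256, 89.4 and 57.2 FPKM at 14 DAI, against 9.35, 13.1 and 11.1 FPKM at 12 DAI. Replicate 1 of 14 DAI held the high value there, and the gene is annotated to the ribosome pathway.

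**Figure D2:**
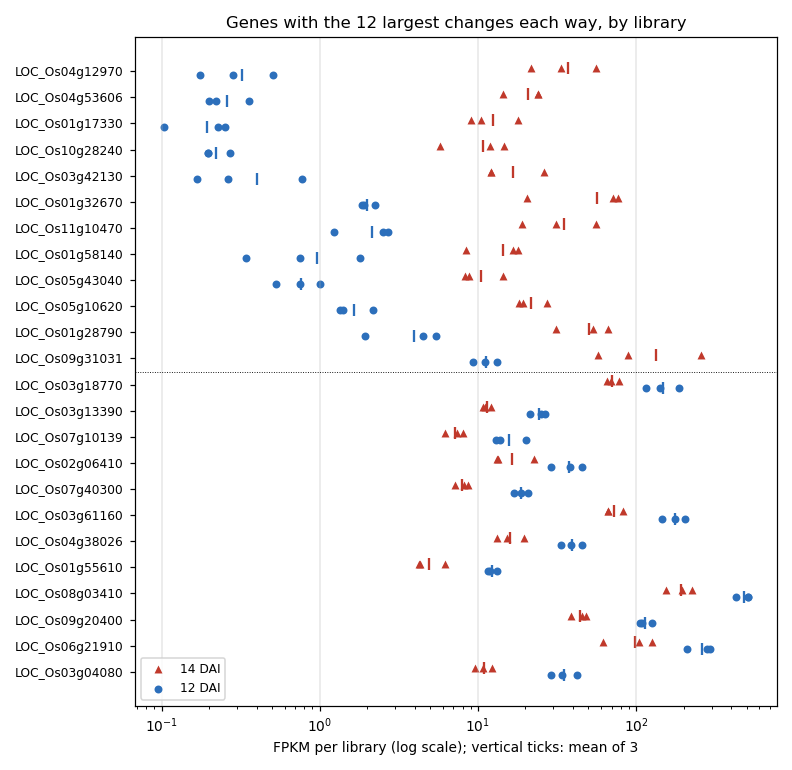
FPKM of the genes with the 12 largest increases (above the dotted line) and the 12 largest decreases, on a log axis, with red triangles for the 3 libraries of 14 DAI, blue circles for the 3 of 12 DAI and vertical ticks for the means. The increases span up to 112.6-fold and the decreases stay below 3.3-fold, and in no gene do the libraries of the time points overlap.

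The decreases were smaller. LOC_Os08g03410 (chr8:1597234-1599568, plus strand), annotated with nutrient reservoir activity, the term for seed storage proteins, had 225, 154 and 197 FPKM at 14 DAI, against 507, 429 and 510 FPKM at 12 DAI. Its log2 fold change was -1.33 ± 0.18 (SE, BH-adjusted p = 0.012 in edgeR). It was the 1 gene called of the 29 on that list (3.45% lower), against 0.137% lower over all genes. LOC_Os04g38026 encodes a sugar transporter like MST1, a monosaccharide carrier, and had 19.6, 15.3 and 13.3 FPKM at 14 DAI, against 38.7, 33.5 and 45.5 FPKM at 12 DAI. The highest 14 DAI library was well below the lowest 12 DAI library. LOC_Os03g04080 had the largest decrease by the same rule, with 10.7, 12.4 and 9.53 FPKM at 14 DAI, against 42.4, 28.9 and 34.0 FPKM at 12 DAI, and the table does not characterise it. LOC_Os03g13390, described as a deoxymugineic acid synthase, an enzyme that makes an iron-chelating acid, had 10.8, 12.1 and 11.2 FPKM at 14 DAI, against 21.3, 26.5 and 25.3 FPKM at 12 DAI. LOC_Os07g40300, a zinc finger protein, had 8.12, 8.66 and 7.12 FPKM at 14 DAI, against 16.9, 20.7 and 18.6 FPKM at 12 DAI. The other 7 of the 12 (LOC_Os06g21910, LOC_Os09g20400, LOC_Os01g55610, LOC_Os03g61160, LOC_Os02g06410, LOC_Os07g10139 and LOC_Os03g18770) had log2 fold changes of -1.06 to -1.42 and descriptions that give no role.

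Several genes were listed at 0 throughout one time point. LOC_Os02g45450, which encodes DREB1G, had 1.77, 1.65 and 1.21 FPKM at 14 DAI and was at 0 in all 3 libraries of 12 DAI, so that it was at least 39.6-fold higher at 14 DAI. The bound sets 12 estimated counts over the group, worth 3 fragments, in place of 0. By the same bound LOC_Os11g02290 was at least 11.6-fold and LOC_Os01g44120 at least 10.1-fold higher at 14 DAI, and LOC_Os07g46320 was at 0 in all 3 libraries of 14 DAI and at least 7.11-fold lower. None of these 3 has a described role. With 1 library left out at a time, each of these genes, DREB1G included, kept its call in 4 of the 9 fits.

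The genes below were looked up by family after the values had been seen, so their counts describe these libraries and are not independent evidence. DREB1 proteins (also known as C-repeat binding factors) switch on cold-response genes. The table described 9 DREB1 genes that met the expression rule, of which 8 had a positive log2 fold change and 7 had every 14 DAI library above every 12 DAI library, with a median of 3.58. Over all genes tested, 47.2% were positive and 13.4% had every 14 DAI library above every 12 DAI library. Summed over the 9, FPKM was 147, 261 and 135 at 14 DAI, against 30.8, 43.4 and 7.50 at 12 DAI. Only DREB1G among them passed the test, where 0.952% of all genes were called higher. Another 5 had a BH-adjusted p between 0.05 and 0.1 in edgeR. How many of all genes fell in that range was not counted. LOC_Os09g35010 (DREB1B) had 45.2, 70.4 and 36.0 FPKM at 14 DAI, against 2.87, 2.79 and 0.220 FPKM at 12 DAI, with a log2 fold change of 4.68 ± 1.08 (SE, BH-adjusted p = 0.066 in edgeR). LOC_Os09g35020 (DREB1H) had 11.2, 20.7 and 8.58 FPKM at 14 DAI, against 0.477, 1.41 and 0.0495 FPKM at 12 DAI (log2 fold change 4.38 ± 1.06 SE, BH-adjusted p = 0.073 in edgeR). LOC_Os09g35030 (DREB1A), which the study names, had 72.8, 135 and 61.3 FPKM at 14 DAI, against 18.3, 21.8 and 4.26 FPKM at 12 DAI (log2 fold change 2.60 ± 1.11 SE, BH-adjusted p = 0.248 in edgeR). In these 3 genes replicate 3 of 12 DAI was the lowest of its group and replicate 2 of 14 DAI the highest of its own. They lie side by side on chromosome 9, from 20395224 to 20404332 on the minus strand. Their products are related, and reads shared between such copies could be split among them. DREB1D (LOC_Os06g06970) went the other way, with 0.253, 0.337 and 0.411 FPKM at 14 DAI, against 0.195, 0.938 and 0.0946 FPKM at 12 DAI, and its ranges overlapped. Among the related DREB2 genes, LOC_Os05g39590 (DREB2D) rose, with 2.40, 1.10 and 1.51 FPKM at 14 DAI, against 0.389, 0.387 and 0.170 FPKM at 12 DAI.

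Genes of ABA synthesis, breakdown and perception differed in direction. LOC_Os03g44380 (chr3:24959107-24961777, plus strand) encodes NCED3, a 9-cis-epoxycarotenoid dioxygenase, the class of enzyme that sets the rate of ABA synthesis. It had 0.409, 0.502 and 0.479 FPKM at 14 DAI, against 5.16, 3.63 and 4.52 FPKM at 12 DAI. Its log2 fold change was -3.25 ± 0.62 (SE, BH-adjusted p = 0.034 in edgeR), and the groups were far apart. With 1 library left out at a time, NCED3 kept its call in 3 of the 9 fits. It was the 1 gene called among 59 of carotenoid biosynthesis, the pathway that feeds ABA (1.69% lower, against 0.137% over all genes). For the 3 ABA 8'-hydroxylases, which break ABA down, all log2 fold changes were positive and none passed the test. The most expressed was LOC_Os02g47470, with 18.9, 55.0 and 36.0 FPKM at 14 DAI, against 15.6, 16.8 and 9.44 FPKM at 12 DAI (log2 fold change 1.39 ± 0.42 SE, BH-adjusted p = 0.126 in edgeR). Of 7 ABA receptors, LOC_Os06g36670 (PYL9-like) rose, with 12.8, 21.4 and 15.4 FPKM at 14 DAI, against 2.01, 2.62 and 0.532 FPKM at 12 DAI. Its log2 fold change was 3.26 ± 0.58 (SE, BH-adjusted p = 0.027 in edgeR), and the median over the 7 receptors was 0.02. The PYL9-like gene kept its call in 4 of the same 9 fits. Protein phosphatases 2C, a family that includes the partners of these receptors, had 5 of 77 members higher and 0 lower, against 0.952% and 0.137% over all genes. The 5 were LOC_Os04g52000, LOC_Os03g18150, LOC_Os07g02330, LOC_Os10g39540 and LOC_Os03g09220, with log2 fold changes of 1.22 to 1.86. Their descriptions do not say whether they are partners of the receptors, and the median of the 77 was -0.004. The GO list for response to ABA had 5 of 299 genes higher (1.67%) and 1 lower, with a median log2 fold change of -0.05.

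The GO terms that name gibberellin covered 85 genes, of which 4 were higher and 1 lower, with a median log2 fold change of -0.11. Over all genes 0.952% were higher and 0.137% lower, with a median of -0.02. One of the higher genes was LOC_Os02g08440, which encodes WRKY71, known in rice aleurone as a repressor of gibberellin-induced alpha-amylase. It had 28.1, 26.0 and 27.8 FPKM at 14 DAI, against 7.84, 7.69 and 7.17 FPKM at 12 DAI, and its log2 fold change was 1.85 ± 0.23 (SE, BH-adjusted p = 0.0096 in edgeR). The libraries of each time were nearly equal. Of 8 alpha-amylases by description, LOC_Os02g52710 rose, with 25.5, 53.2 and 70.0 FPKM at 14 DAI, against 11.7, 14.0 and 12.3 FPKM at 12 DAI (log2 fold change 1.97 ± 0.34 SE, BH-adjusted p = 0.026 in edgeR). Replicate 1 of 14 DAI was the lowest of its group and still above 12 DAI. The call of LOC_Os02g52710 held in 4 of the 9 fits with 1 library left out. This gene is not on the GO list for alpha-amylase activity, which had 0 of 8 genes called. Of the 12 TIFY (JAZ) genes, whose products repress jasmonate responses, LOC_Os03g08330 (TIFY 11b) had 10.2, 11.9 and 11.0 FPKM at 14 DAI, against 3.04, 4.24 and 2.32 FPKM at 12 DAI. LOC_Os10g25290 (TIFY 11d) had 18.8, 20.8 and 18.5 FPKM at 14 DAI, against 6.55, 10.2 and 10.2 FPKM at 12 DAI. These were the only TIFY genes that passed the test. LOC_Os05g37250 and LOC_Os11g05380, both described as the cytochrome P450 94C1 that in Arabidopsis oxidises the active jasmonate, rose with log2 fold changes of 1.64 and 2.71. LOC_Os06g11290, a 12-oxophytodienoate reductase, rose by 3.20 on the log2 scale.

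Families of transcription factors came next. Of 59 WRKY genes, 6 were higher and 0 lower, against 0.952% higher and 0.137% lower over all genes, and the median of the 59 was 0.31. With 1 library left out at a time, each of the 6 kept its call in 3 to 7 of the 9 fits. LOC_Os05g27730 (WRKY53, a factor of defence and growth in rice) was the most abundant of the 6, with 64.1, 48.8 and 55.9 FPKM at 14 DAI, against 19.1, 26.3 and 21.2 FPKM at 12 DAI. The others besides WRKY71 were LOC_Os06g44010 (WRKY28), LOC_Os01g61080 and LOC_Os05g39720 (both described as WRKY24) and LOC_Os01g09100 (WRKY50), with log2 fold changes of 2.25 to 3.68. Their levels at 12 DAI were low, at or below 1.45 FPKM in every library. Of 61 NAC genes, 4 were higher and 1 lower. Besides the NAC genes given above, LOC_Os07g12340 (NAC67) and LOC_Os01g15640 (NAC74) rose by 2.20 and 1.09 on the log2 scale, and LOC_Os01g66490 fell by 1.15. Of 83 AP2/ERF genes, 6 were higher and 1 lower. The most abundant of the called members was LOC_Os01g64790, with 78.2, 67.7 and 58.1 FPKM at 14 DAI, against 16.8, 16.0 and 16.5 FPKM at 12 DAI, where the 12 DAI libraries were nearly identical. Of 21 heat stress factors, LOC_Os02g32590 (A-3) and LOC_Os03g12370 rose by 1.41 and 1.91. LOC_Os02g41510, described as MYB30-like, had 4.70, 5.26 and 3.71 FPKM at 14 DAI, against 0.201, 0.772 and 0.520 FPKM at 12 DAI.

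Of 113 calcium sensors and transporters, 6 were higher and 0 lower, where 0.952% of all genes were higher and 0.137% lower. LOC_Os04g41540 (CML22, a calmodulin-like calcium sensor) had 8.88, 11.4 and 6.05 FPKM at 14 DAI, against 0.909, 1.11 and 1.29 FPKM at 12 DAI, a log2 fold change of 2.98 ± 0.31 (SE, BH-adjusted p = 0.0069 in edgeR). LOC_Os08g42750, a calcium-dependent protein kinase, rose by 1.06 on the log2 scale, but it overlaps another gene of the table and its counts are uncertain. LOC_Os03g17700 encodes MAP kinase 5, known in rice for roles in defence and abiotic stress, and had 21.6, 20.2 and 8.31 FPKM at 14 DAI, against 5.77, 5.95 and 4.82 FPKM at 12 DAI. In that gene replicate 3 of 14 DAI stood nearer to 12 DAI than replicates 1 and 2 did. MAP kinase 5 kept its call in 3 of the 9 fits with 1 library left out. Of 372 receptor-like kinases, 8 were higher (2.15%) and 0 lower. LOC_Os07g35340 was the most changed of them with a mean above 10 FPKM, with 18.6, 17.1 and 13.8 FPKM at 14 DAI, against 1.10 to 1.79 FPKM at 12 DAI. LOC_Os04g52840 and LOC_Os02g06930, both described as cold-responsive protein kinase 1, a regulator of freezing tolerance in Arabidopsis, rose by 1.28 and 1.19 on the log2 scale.

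Smaller groups of metabolism and growth followed. Trehalose-phosphate synthases make, or are related to enzymes that make, the sugar signal trehalose 6-phosphate, and 3 of the 18 genes of that family (phosphatases included) were higher, where 0.952% of all genes were. LOC_Os08g34580 had 22.6, 23.5 and 12.8 FPKM at 14 DAI, against 4.16, 4.72 and 3.05 FPKM at 12 DAI, and LOC_Os05g44100 and LOC_Os01g54560 rose by 1.26 and 1.02 on the log2 scale. Xyloglucan endotransglucosylases loosen and rebuild the cell wall. LOC_Os04g51460 (XTH24) had 32.6, 59.8 and 48.1 FPKM at 14 DAI, against 9.37, 6.55 and 7.34 FPKM at 12 DAI, and LOC_Os06g48160 (XTH22) had 98.0, 166 and 90.5 FPKM at 14 DAI, against 26.9, 35.5 and 31.7 FPKM at 12 DAI. These were 2 of 21 such genes, and of 37 expansins, another wall-loosening family, 0 were called, with a median log2 fold change of -0.34. LOC_Os01g14410 encodes an early light-inducible protein, which binds chlorophyll pigments in stressed plastids, and had 26.1, 26.1 and 30.1 FPKM at 14 DAI, against 4.79, 8.15 and 5.98 FPKM at 12 DAI.

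Read over lists of the table's own annotation, several signalling and stress terms held called genes. The share over all genes tested was 0.952% higher and 0.137% lower. KEGG plant-pathogen interaction had 16 of 386 genes higher and 0 lower, and the KEGG MAPK signaling pathway had 12 of 243 higher and 1 lower. GO defense response had 11 of 434 higher and 0 lower, with 268 of the 434 positive. Response to cold had 7 of 211 higher and 0 lower, response to heat 6 of 122 and 0, and response to auxin 6 of 170 and 1. Starch and sucrose metabolism had 6 of 288 higher (2.08%) and plant hormone signal transduction 7 of 383 (1.83%), with 0 lower in each. Many of these terms share genes, since WRKY53 alone is on the lists for pathogens, MAP kinases, cold, heat and water deprivation. The medians of all these lists were between -0.11 and 0.11, against -0.02 over all genes.

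**Figure D3:**
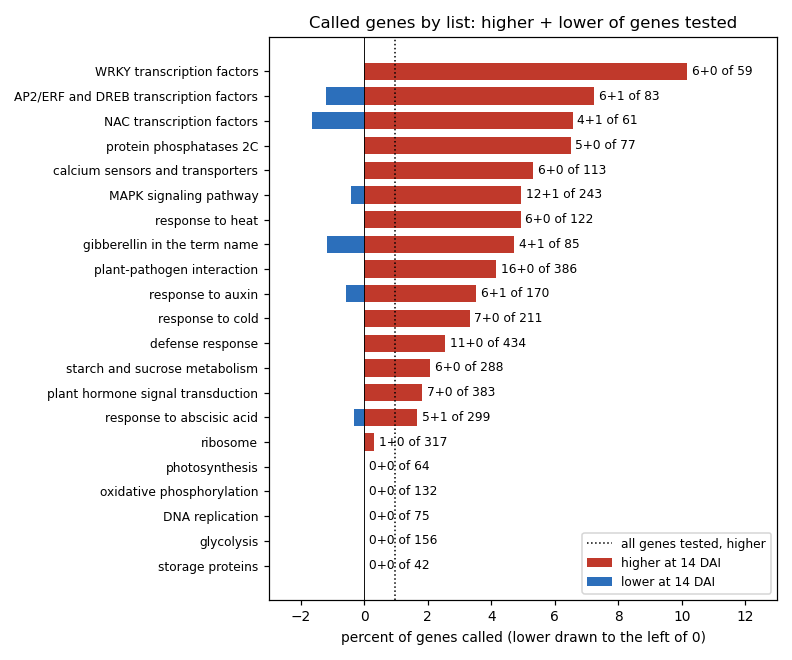
Percent of the genes of each list or family called higher at 14 DAI (red, to the right) or lower (blue, to the left), with the numbers higher + lower of those tested beside each bar. The dotted line is the share called higher over all genes, 0.952%, and the lists from WRKY down to response to ABA lie above it while ribosome lies below and the last 5 have 0 called.

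No gene was called among 64 of photosynthesis, 132 of oxidative phosphorylation, 75 of DNA replication, 156 of glycolysis or 86 of the proteasome, and 1 of 317 ribosome genes was. Over all genes 0.952% were higher and 0.137% lower, and at that share lists of these sizes hold few calls. In the proteasome list 2 genes had a BH-adjusted p below 0.05 with a positive change smaller than the fold minimum. Several groups nevertheless leaned down without calls. Of 23 core histones, which package newly made DNA, 1 had a positive log2 fold change, and the median was -0.41. Over all genes 47.2% were positive. The 18 late embryogenesis abundant (LEA) proteins and dehydrins, which protect dry seed, had a median of -0.63 with 2 positive, and 2 of them had a BH-adjusted p below 0.05 with a decrease smaller than the fold minimum. The 6 oleosins, the coat proteins of oil bodies, had a median of -0.89 with 1 positive. In the 42 storage proteins found by description, a different list from the genes with nutrient reservoir activity, 10 were positive and the median was -0.33. One of them, the prolamin LOC_Os05g26377, had 7.16, 9.25 and 10.9 FPKM at 14 DAI, against 6.03, 623 and 7.61 FPKM at 12 DAI, so that replicate 2 of 12 DAI held nearly all of its signal.

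Of the genes the study names, NCED3 and WRKY71 were called, as given above. The 16 others looked up were not called between these times, and the remaining genes it names are not analysed here. Over all genes 0.952% were higher and 0.137% lower. Apart from its reference gene Actin, the study named these genes for WR04-6 against QSZ, not for a change between times. OsMFT2 (LOC_Os01g02120), of a family that regulates seed germination, had 9.05, 11.1 and 7.59 FPKM at 14 DAI, against 4.10, 3.92 and 3.76 FPKM at 12 DAI, with a log2 fold change of 1.23 ± 0.30 (SE, BH-adjusted p = 0.076 in edgeR). Its ranges did not overlap. RAB21 (LOC_Os11g26790), a dehydrin, had 916, 551 and 606 FPKM at 14 DAI, against 1071, 1035 and 1175 FPKM at 12 DAI (log2 fold change -0.67 ± 0.17 SE, BH-adjusted p = 0.089 in edgeR). The gibberellin synthesis genes qEPD2 (LOC_Os03g63970, a gibberellin 20-oxidase) and OsGA3ox2 (LOC_Os01g08220) had log2 fold changes of -0.67 ± 0.24 and -0.99 ± 0.36 (SE). OsVP1 (LOC_Os01g68370), a B3 factor of ABA responses, had -0.57 ± 0.20, and OsGSR1 (LOC_Os06g15620), a gibberellin-regulated protein, -0.36 ± 0.13. In OsGAMYB (LOC_Os01g59660), OsNAC52 (LOC_Os05g34830), OsNCED5 (LOC_Os12g42280), OsGA2ox5 (LOC_Os07g01340), OsLti6a (LOC_Os07g44180) and RAG2 (LOC_Os07g11380) the log2 fold changes lay between -0.26 and 0.51, with SE of 0.23 to 0.65 and overlapping libraries. OsMAPK6 (LOC_Os06g06090) had 34.3, 39.3 and 35.8 FPKM at 14 DAI, against 42.4, 42.3 and 41.4 FPKM at 12 DAI. Actin (LOC_Os03g50885) had 283, 318 and 311 FPKM at 14 DAI, against 338, 330 and 309 FPKM at 12 DAI, and its log2 fold change was -0.10 ± 0.09 (SE).

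The 10 DAI libraries place these levels in time. Of the 201 higher genes, 173 had a 10 DAI mean between the other means, 4 above both and 24 below both. Over all 21121 genes tested, 7974 had a 10 DAI mean between the other means, 6956 above both and 6191 below both. The 201 were chosen for a wide gap between the 14 and 12 DAI means, which by itself favours a 10 DAI mean between them. These splits are therefore a description. The median log2 fold change of the 201 was 1.37 for 14 over 10 DAI and -0.59 for 12 over 10 DAI. In those comparisons, which share libraries with the one that chose the genes, 60 of the 201 were called higher for 14 over 10 DAI (0.521% over all genes), and 6 were called lower for 12 over 10 DAI (0.0805% over all genes). In PYL9-like LOC_Os06g36670 the 12 DAI libraries were the low ones, with 11.2 ± 6.31 FPKM at 10 DAI, 1.72 ± 1.07 FPKM at 12 DAI and 16.5 ± 4.44 FPKM at 14 DAI (SD, n = 3 each). The early light-inducible protein gene LOC_Os01g14410 was highest at 10 DAI, with 65.5 ± 39.1 FPKM, and lowest at 12 DAI. NCED3 had its high level at 12 DAI alone, with 0.785 ± 0.633 FPKM at 10 DAI, 4.44 ± 0.771 FPKM at 12 DAI and 0.463 ± 0.0486 FPKM at 14 DAI (SD, n = 3 each). By contrast the calcium ATPase LOC_Os10g28240 was low at both earlier times, with 0.596 ± 0.383 FPKM at 10 DAI and 0.221 ± 0.0419 FPKM at 12 DAI. The DREB1 sum was 2.91, 1.99 and 19.8 FPKM at 10 DAI, and replicate 3 was the high one there.

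**Figure D4:**
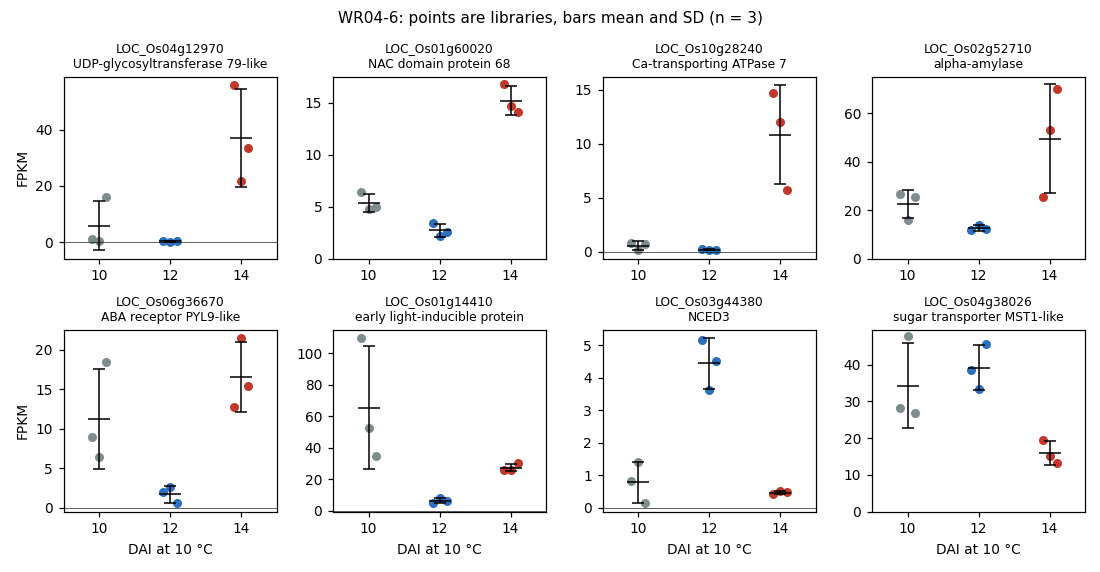
FPKM of 8 genes in the WR04-6 libraries at 10, 12 and 14 DAI, each panel with its own linear axis, points for libraries and bars for the mean and SD (n = 3). NAC68 and the calcium ATPase are clearly highest at 14 DAI, the PYL9-like gene and the early light-inducible gene dip at 12 DAI, and NCED3 peaks at 12 DAI.

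In QSZ, over the same interval, 58 genes were higher at 14 than at 12 DAI (0.275% of those tested) and 6 lower (0.0284%). These calls came from a fit of all 17 libraries, in which WR04-6 had 145 genes higher and 8 lower. A gene not called in QSZ is not thereby shown to be unchanged there. Of the 201 genes higher in WR04-6, 2 were called higher in QSZ, 0 were called lower, 91 had a positive log2 fold change, and their QSZ median was -0.02. The test of the difference between accessions called 113 genes (BH-adjusted p below 0.05, 0.535% of those tested), among them 40 of the 201 and 0 of the 29. Since the 201 were chosen on their change in WR04-6, the 40 are a description. For LOC_Os01g65410 (serine hydroxymethyltransferase) the change was larger in WR04-6 than in QSZ by 2.19 on the log2 scale (BH-adjusted p of the difference 0.0056 in edgeR), and its QSZ means were 11.7 FPKM at 14 DAI and 14.3 FPKM at 12 DAI. NAC68 (LOC_Os01g60020) differed by 2.82, with QSZ means of 7.85 FPKM at 14 DAI and 9.25 FPKM at 12 DAI. CML22 (LOC_Os04g41540) differed by 3.49 and the trehalose-phosphate synthase LOC_Os08g34580 by 3.00. The difference went the other way for qEPD2 (LOC_Os03g63970, -2.26), whose QSZ means were 45.0 FPKM at 14 DAI and 14.3 FPKM at 12 DAI. The alpha-amylase LOC_Os02g52710 did not pass this test (difference 0.33 ± 1.01 SE), and in QSZ it averaged 626 FPKM at 14 DAI and 195 FPKM at 12 DAI. The count of 113 rested on single libraries. It was 3 to 34 without 1 WR04-6 library of 12 or 14 DAI. It was 1392 without QSZ 12 DAI replicate 1, 395 without QSZ 14 DAI replicate 1 and 10 to 44 without 1 of the other QSZ libraries.

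**Figure D5:**
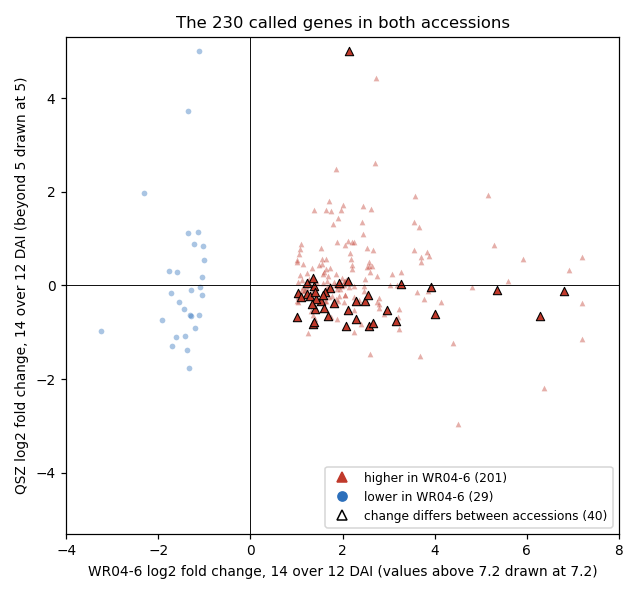
Log2 fold change (14 over 12 DAI) of the 230 called genes in WR04-6 (horizontal) and QSZ (vertical), with red triangles for the 201 higher and blue circles for the 29 lower in WR04-6, and black outlines for the 40 whose change differed between accessions. The red points spread around 0 in QSZ, where 91 of the 201 are positive, and points beyond the limits named on the axes are drawn at them.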

How the data were processed

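RNA from germinating seed was sequenced as paired reads of polyA-selected, strand-marking libraries. Per the submitters' processing notes, cutadapt 1.9, HISAT2 2.0.4 and StringTie 1.3.4d were used. The version of the rice genome is not given in the sources used here, so positions are those of the deposited table, and whether counting used strand is not given either. The authors deposited, for each gene and library, FPKM values (normalised for transcript length and library size) and estimated counts, in which 1 fragment was worth about 4 counts. The estimated counts were rounded to whole numbers and tested with edgeR 4.0.16 (R 4.3.3, quasi-likelihood, TMM factors), with the 9 WR04-6 libraries in 3 groups. BH adjustment ran over all 21121 genes. The change in QSZ was tested in a fit of all 17 libraries, and the accessions were compared by an interaction term in that fit. FPKM gave the levels shown. Alternatives used DESeq2 1.42.0, limma 3.58.1, other scaling, filters and samples. Only the edgeR test within WR04-6 was tried on simulated counts. The comparison of accessions, the alternatives and the other steps were not.

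Genes named by rule were the 12 largest changes in each direction among called genes with a mean of at least 10 FPKM at either time and libraries that did not overlap, those lowest in adjusted p within each list (up to 4), and 16 of the genes the study names. Other genes were named after their values had been seen. Members and lists were chosen with earlier results of these data known. Fold bounds set 12 estimated counts (3 fragments) over the group in place of 0 and cover counting error only. No sequence is shown.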

Additional observations from a re-analysis of the deposited data

Results flagged for a closer look

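The change between 14 and 12 DAI differed between WR04-6 and QSZ for 16 of the genes named above, by edgeR's test of the difference with BH adjustment over all genes. Over all genes tested, 0.535% differed. Each value is the log2 fold change in WR04-6 minus that in QSZ. All of these genes except qEPD2 had been called higher in WR04-6, a change that is part of this difference. Their count and signs are therefore a description. The difference was 2.19 for LOC_Os01g65410 (serine hydroxymethyltransferase), 2.82 for LOC_Os01g60020 (NAC68), 2.02 for LOC_Os04g59140 and 1.37 for LOC_Os01g36790 (receptor-like kinase). It was 3.49 for LOC_Os04g41540 (CML22), 2.07 for LOC_Os03g17700 (MAP kinase 5) and 2.18 for the phosphatase LOC_Os03g18150. For the trehalose-phosphate synthases LOC_Os08g34580 and LOC_Os01g54560 it was 3.00 and 1.67. The factors LOC_Os02g41510 (MYB30-like) and LOC_Os02g32590 (heat stress factor A-3) had 3.92 and 1.54. Among the largest increases it was 6.94 for LOC_Os04g12970, 6.91 for LOC_Os04g53606, 5.44 for LOC_Os03g42130 and 4.61 for LOC_Os11g10470. One value was negative, that of qEPD2 (LOC_Os03g63970) with -2.26. Leaving out single libraries moved the number of genes with such a difference from 113 to between 3 and 1392.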

How the results depend on the processing

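The counts of 201 higher and 29 lower genes ranged 7 to 276 and 0 to 55 when 1 library was left out, and the 113 genes that differed between accessions ranged 3 to 1392. DESeq2 gave 469 higher, 104 lower and 1144 that differed. Lower genes numbered 8 with all 17 libraries, 17 with limma on log2(FPKM + 1) and 97 with no minimum fold. An adjusted p below 0.01 left 29 higher and 1 lower. Genes that differed numbered 65 without TMM factors and 208 with at least 1 FPKM in 3 or more libraries. With the replicate number as a block there were 62 higher, 4 lower and 11 that differed. Deviations of same-numbered libraries of 14 and 12 DAI correlated at -0.08, 0.23 and -0.22. Whether the numbers pair the libraries is not given and was not tested. For the 74 called genes named here, 705 of 809 values under alternatives other than leaving out a library kept call and direction, 104 lost the call and 0 reversed. Of 666 values with 1 library left out, 305 lost the call and 0 reversed.

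Signs turned for some genes that were not called. Without replicate 1 of 14 DAI the log2 fold change was -0.19 for LOC_Os01g59660, -0.50 for LOC_Os05g34830 and -0.65 for LOC_Os12g42280, and without replicate 3 it was 0.42, 0.83 and 0.96, the ends of the range over libraries left out. For LOC_Os07g01340 this range was -0.16 (without replicate 1 of 12 DAI) to 0.63. It was -5.10 to 0.43 for LOC_Os05g26377 and -0.73 to 1.18 for LOC_Os06g06970, with both upper ends reached without replicate 2 of 12 DAI. LOC_Os06g06970 also had 0.13 in limma on log2(FPKM + 0.1) and 0.023 under the replicate block. The cause was not tested. Genes listed at 0 throughout a group, such as DREB1G at 12 DAI, are limited by depth there.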
